A study of Mus musculus with 6 samples.

Results

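Collagen genes were examined in RNA sequencing of mouse lumbar dorsal root ganglia, the clusters of sensory neurons, glia, vessels and connective tissue beside the spinal cord. The members were every gene of the table whose symbol is Col, a number, a and a number, and 43 of its 24264 genes matched. Of these, 30 reached 1 RPKM (reads per kilobase of transcript and per M mapped reads; M, mega) in at least 3 of the 6 libraries, as did 13118 genes in all, and these were tested. The remaining 13 collagens were below that level and are described without a test of their own. The study compared 3 control and 3 miR-CKO libraries from E12.5 embryos, all on a mixed C57/Bl6 x 129/SvEv background and all from 1 sequencing run and lane. The miR-CKO embryos carried Wnt1-Cre and 2 floxed alleles of the cluster that encodes miR-183, miR-96 and miR-182. Controls 1 and 3 were titled as carrying the Cre, and control 2 as wild type, so the control group mixes both. Wnt1-Cre acts in the neural crest lineage, which gives the neurons and glia of the ganglion, while mesenchyme, cartilage and muscle of the trunk come from mesoderm. Nothing in the labels says whether a library pooled several embryos. The p-values of single genes thus set the group difference against the spread between libraries within the groups.

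Collagens are secreted or membrane proteins of 3 chains wound into a helix. Fibrillar types form the cables of connective tissue, types II, IX and XI form the fibrils of cartilage, and type IV forms the sheet of basement membranes around vessels, glia and nerve. Other types link fibrils to each other (types XII, XIV and XVI), form beaded microfilaments (type VI), form open networks (type VIII) or span the cell membrane (types XIII, XVII, XXIII and XXV). In the embryonic nervous system, type IV collagen lies in the basement membranes, and most fibrillar collagen is made by mesenchyme and by the coverings of ganglia and nerves.

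The depth was estimated as 20.1 to 24.2 M reads per library. The tissue label was checked with 8 sensory neuron genes, of which Tubb3 ranged from 654 to 915 RPKM and Isl1 from 143 to 202 RPKM. The 3 deleted genes, Mir183, Mir96 and Mir182, are listed at 0 in every library of these polyadenylated RNA libraries, so the table gives no check of the deletion. Xist, an RNA made from an inactivated X, was at 96.0 RPKM in miR-CKO 1 and at 0.0890 RPKM or less in each other library. That library stood apart from the other 5 in this gene, and the collagen median is also given without it. No fit adjusted for this difference, also not for the X-linked Col4a5 and Col4a6.

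**Figure D1:**
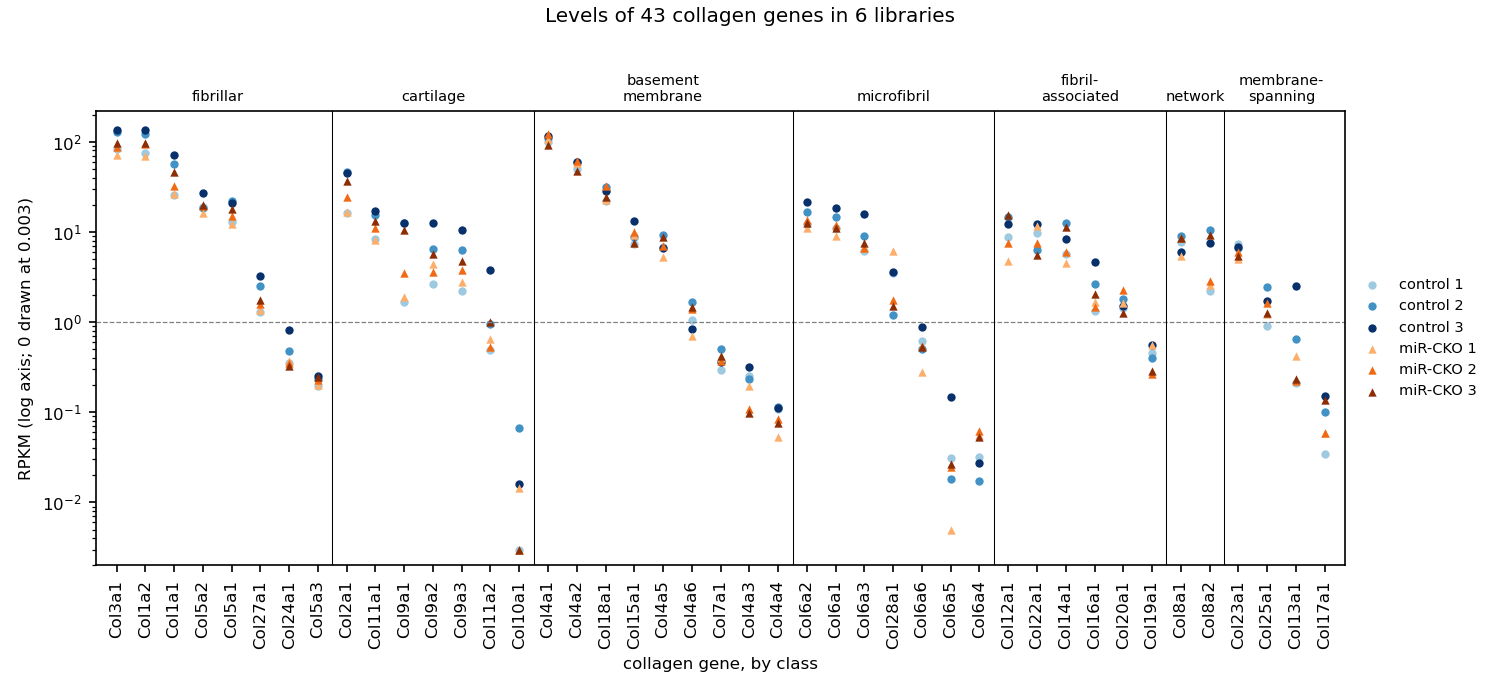
Level of each of the 43 collagen genes, grouped by class, in RPKM on a log axis, with 1 point per library (circles, 3 control libraries; triangles, 3 miR-CKO libraries; dashed line, 1 RPKM; a value of 0 is drawn at 0.003). Col4a1, Col3a1 and Col1a2 have the highest levels, and within most genes the points of the groups overlap.

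Transcripts of basement membrane and fibrillar collagens were the most abundant, as the plot of levels by gene shows. The mean over the 6 libraries was 10 RPKM or more for 13 collagens, 1 to 10 RPKM for 18 and below 1 RPKM for 12. Col4a1, a chain of the common type IV molecule, had the highest mean at 107 RPKM, followed by the fibrillar chains Col3a1 at 100.2 RPKM and Col1a2 at 98.7 RPKM. The difference between these 3 means was within the range of each gene over the libraries. Col4a2 followed at 56.3 RPKM, Col1a1 at 42.9 RPKM and the cartilage chain Col2a1 at 30.9 RPKM. Cartilage chains were thus measured in every ganglion library. Levels of different genes depend on the transcript length used by the authors, which could be recovered for 39 collagens. It was within 10% of the length of the annotated main transcript for 28 of them. It was shorter for Col9a1 (1920 against 3834 bases) and Col1a1 (4619 against 5930 bases). For Col25a1 (7298 against 2624 bases) and Col19a1 (10245 against 4266 bases) it was longer. No length was recovered for Col4a1, Col3a1, Col1a2 and Col5a1, so the 3 highest means were not checked in this way. The level of such genes relative to others is therefore uncertain, whereas comparisons between libraries are not touched by this length.

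No collagen changed between control and miR-CKO past the threshold. Using limma on log2(RPKM + 1), 0 of 30 tested collagens had a Benjamini-Hochberg adjusted p below 0.05, compared with 8 of 13118 genes, or 0.061%. At an unadjusted p below 0.05 there was 1 collagen, lower in miR-CKO, compared with 5.16% of all tested genes in either direction and 2.31% lower. The groups did not overlap for 1 of 30 collagens, which was lower in miR-CKO, compared with 6.24% of all tested genes lower without overlap, 4.63% higher and 10.9% in either direction. That gene was in both cases Col23a1, with the lowest adjusted p of the collagens (limma, 0.679). On simulated data with the same number of genes, the fit found 76% of genes given a log2 change of 1.0 and 38% of genes given 0.5. Those genes were drawn from the tested genes at large, not from collagens. The highest library was 1.31 times the lowest in the median tested gene and 2.13 times in the median collagen. The shares found therefore do not hold for the collagens.

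The fitted log2 changes of the collagens were nonetheless mostly below 0. They were below 0 for 28 of 30 collagens, compared with 59.6% of all tested genes, and their median was -0.29, compared with -0.02 for all tested genes. The exceptions, 2 of 30 above 0 against 40.4% of all tested genes, were Col20a1 (0.06) and Col28a1 (0.04). This median rested on particular libraries. It was -0.54 without control 1, -0.13 without control 3 and -0.12 without miR-CKO 1. Without both control 2 and control 3, which leaves control 1 alone against the miR-CKO libraries, it was 0.16, and 22 of 30 collagens were above 0. These 2 libraries had the highest collagen sums and control 1 the lowest of the controls, so the choice itself fixes that direction. The bulk measurement cannot tell fewer cells of a type from less RNA per cell, here or in any result that follows.

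**Figure D2:**
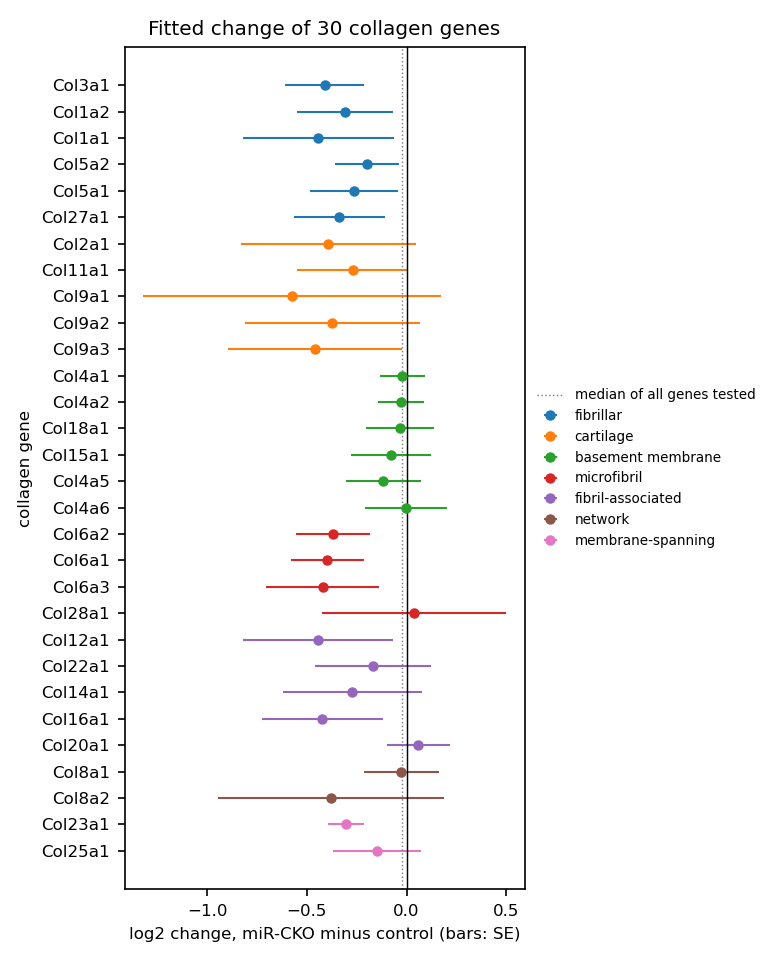
Fitted log2 change of the 30 tested collagens (miR-CKO minus control, on log2(RPKM + 1); points, estimates; bars, standard error; 3 libraries per group; dotted line, median of all tested genes at -0.02). Most points lie below 0, the basement membrane chains lie near 0, and Col9a1 and Col8a2 have the widest bars.

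The collagens differed more among libraries than most genes did. The highest library was 2.13 times the lowest in the median collagen and 1.31 times in the median tested gene. Control 2 or control 3 was the highest library for 23 of 30 collagens (76.7%), compared with 44.5% of all tested genes. Control 1 or miR-CKO 1 was the lowest for 25 of 30 (83.3%), compared with 48.2% of all tested genes. The RPKM summed over the 43 collagens were 516, 768 and 840 in controls 1 to 3 and 508, 611 and 629 in miR-CKO 1 to 3. Control 1 was thus close to miR-CKO 1, and the other 2 controls were above every miR-CKO library.

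**Figure D3:**
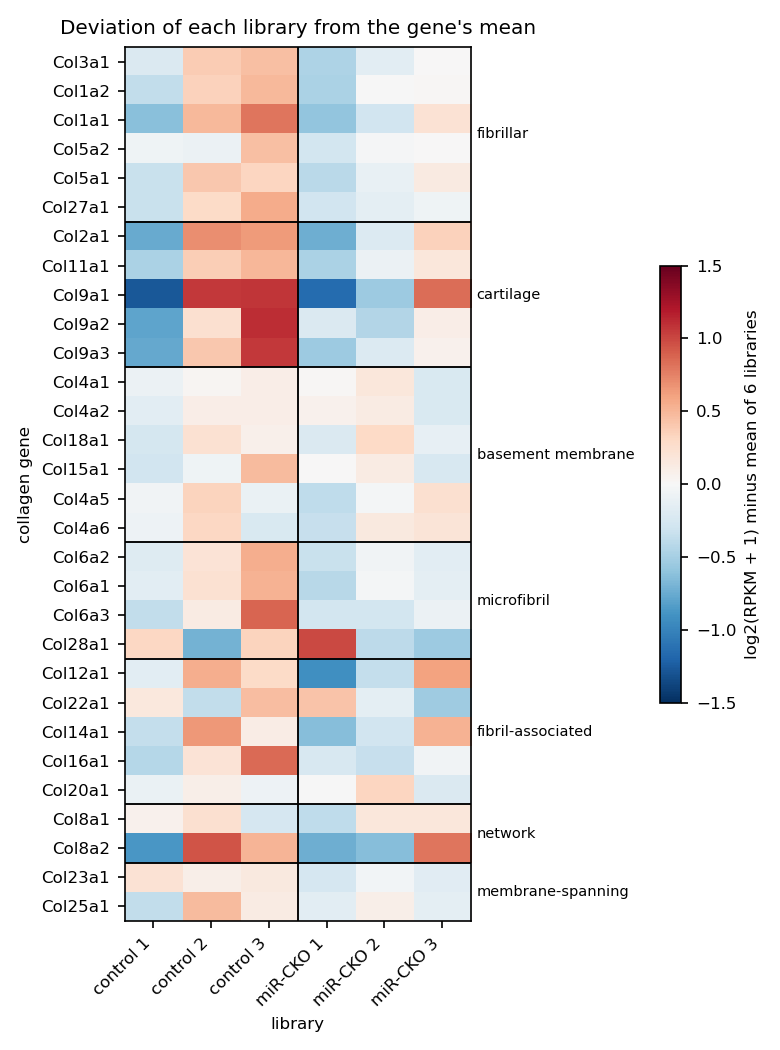
Deviation of each library from the mean of the gene over 6 libraries, in log2(RPKM + 1), for the 30 tested collagens (rows, grouped by class; columns, libraries; red, above the mean; blue, below it). Control 1 and miR-CKO 1 are mostly blue and controls 2 and 3 mostly red, with the strongest colours among cartilage chains and paler ones for Col4a1 and Col4a2.

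Because the deleted locus encodes microRNAs, the collagen transcripts were searched for matches to their seeds. A microRNA guides silencing proteins to messages that pair with its bases 2 to 8, the seed, shown here in capitals in the mature forms (RefSeq, GRCm38.p6, chromosome 6, minus strand).
mmu-miR-183-5p: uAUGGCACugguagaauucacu
mmu-miR-96-5p: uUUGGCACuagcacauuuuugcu
mmu-miR-182-5p: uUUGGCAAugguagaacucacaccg
The 3 seeds are related, and miR-96 and miR-182 share the match TGCCAAA. Seed matches of 7 or 8 bases in the 3′ untranslated region (3′ UTR) of the main transcript were found in 12 of 42 collagens with such a region (28.6%), compared with 32.6% of 11966 tested genes. Among tested collagens, 8 of 30 had a match (26.7%). Their median log2 change was -0.32, compared with -0.27 for the 22 without one. Over all tested genes these medians were 0.00 and -0.04. Matches are descriptions of the letters and do not show that a site was used.

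Col12a1 and Col5a1 had the most matches among tested collagens, 3 each, followed by Col22a1 with 2, while Col8a1, Col9a1, Col23a1, Col27a1 and Col6a3 had 1 each. The sites below are shown on the transcript strand with 10 bases on each side and the match in capitals (GRCm38/mm10, 3′ UTR). They were chosen as the 8-base matches of Col12a1 at chr9:79600316-79600323 (minus), Col5a1 at chr2:28038849-28038856 (plus) and Col8a1 at chr16:57625820-57625827 (minus) and the miR-96 match of Col23a1 at chr11:51580194-51580200 (plus).
Col12a1: atttagggatTTGCCAAAaatcctacct
Col5a1: agttctactcTTGCCAAAgaaatgcctg
Col8a1: ccaaagtcaaTTGCCAAAaatccaaacc
Col23a1: atttgcaagtGTGCCAAccagcccctg
The first 3 hold the same 8 bases, which match miR-182, and their last 7 also match miR-96. The fitted log2 changes of these 4 genes were -0.44, -0.26, -0.03 and -0.30. None of the 8 tested collagens with a match had a change above 0, but only 2 of all 30 tested collagens did. The direction thus does not set the collagens with a match apart.

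Among fibrillar collagens, the cables of connective tissue, 6 of 8 genes were tested, and their median log2 change was -0.32, with all 6 below 0 and none past the threshold. This median was -0.58 without control 1, -0.15 without control 3 and -0.20 without miR-CKO 1. Col3a1, the chain of type III collagen (chr1:45311538-45349706), was at 83.8, 128 and 134 RPKM in the controls, in the order 1 to 3, and at 70.6, 87.4 and 97.7 RPKM in miR-CKO. The means were 115 ± 27.3 and 85.2 ± 13.6 RPKM (SD, n = 3 each), and the log2 change was -0.41 with a 95% interval of -0.88 to 0.06. Controls 2 and 3 lay above all miR-CKO libraries, but control 1 lay among them.

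Col1a2, which encodes the second chain of type I collagen (chr6:4505618-4541543), was at 74.2, 122 and 134 RPKM in the controls and at 69.0, 95.2 and 97.0 RPKM in miR-CKO. Its partner Col1a1 (chr11:94936224-94953042) was at 25.6, 56.3 and 70.5 RPKM in the controls and at 26.2, 32.6 and 46.4 RPKM in miR-CKO. Both chains repeat the order seen in Col3a1, with control 1 near miR-CKO 1. The log2 change was -0.31 (SE 0.24, unadjusted p 0.238 by limma) for Col1a2 and -0.44 (SE 0.38, unadjusted p 0.280) for Col1a1.

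The chains of type V collagen, which joins type I fibrils and limits their thickness, were lower in level. Col5a2 was at 18.7, 18.4 and 27.2 RPKM in the controls and at 16.01, 19.3 and 19.6 RPKM in miR-CKO. Col5a1 was at 12.8, 22.0 and 20.8 RPKM in the controls and at 12.1, 15.1 and 18.0 RPKM in miR-CKO. In Col5a2 control 3 stood alone above the rest, whereas in Col5a1 controls 2 and 3 did. Col27a1, a fibrillar collagen of developing cartilage, was at 1.28, 2.52 and 3.24 RPKM in the controls and at 1.37, 1.60 and 1.75 RPKM in miR-CKO, with a log2 change of -0.34. The remaining fibrillar members, Col5a3 and Col24a1, were below 1 RPKM in every library.

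Cartilage collagens varied most among libraries. Their median ratio of the highest to the lowest library was 4.70 over 5 tested genes, compared with 1.92 for fibrillar and 1.63 for basement membrane chains. Their median log2 change was -0.39, with all 5 below 0 and none past the threshold. It was -0.87 without control 1, -0.19 without control 2, -0.09 without control 3 (4 of 5 below 0), -0.14 without miR-CKO 1 and -0.61 without miR-CKO 3. Col2a1, the main chain of cartilage fibrils (chr15:97975602-98004724), was at 16.3, 46.7 and 44.8 RPKM in the controls and at 16.6, 24.4 and 36.4 RPKM in miR-CKO. The log2 change was -0.39, and its 95% interval ran from -1.43 to 0.65. Control 1 and miR-CKO 1 were thus almost equal, and miR-CKO 3 lay near controls 2 and 3.

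Col9a1, a chain of the type IX collagen that coats cartilage fibrils, had the widest range of the tested collagens, 7.49 times. It was at 1.69, 12.6 and 12.7 RPKM in the controls and at 1.91, 3.47 and 10.6 RPKM in miR-CKO. Its partner Col9a3 was at 2.22, 6.26 and 10.4 RPKM in the controls and at 2.77, 3.75 and 4.76 RPKM in miR-CKO. For Col9a1, miR-CKO 3 was close to controls 2 and 3, but for Col9a3 it was not. Col9a2, the remaining chain, was at 2.64, 6.44 and 12.503 RPKM in the controls and at 4.42, 3.62 and 5.72 RPKM in miR-CKO. Col11a1, a chain of the type XI collagen in the core of these fibrils, was at 8.26, 15.6 and 17.2 RPKM in the controls and at 8.22, 11.0 and 13.4 RPKM in miR-CKO, with a log2 change of -0.27. In Col9a2, Col9a3 and Col11a1, control 3 was the highest library.

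Of the low cartilage chains, Col11a2 was highest in control 3. It was at 3.76 RPKM there and at 0.489 to 0.992 RPKM in the other 5 libraries. Col10a1, made by mature cartilage cells, had 0, 5 and 1 reads in the controls and 1, 0 and 0 reads in miR-CKO. That is at or near the floor of 3 reads in most libraries, so no fold is given. Cartilage and sclerotome markers that are no collagens did not share 1 order. Of 7 tested, 3 were highest in control 3, 2 in control 2 and 2 in miR-CKO 3, among the latter Sox9 at 9.18 RPKM. Among those below the filter, named after their values were seen, Matn1 was at 1.87 RPKM in control 3, at 0.0205 RPKM in control 2 and listed at 0 in the other 4. Acan, the main proteoglycan of cartilage, was at 2.10 RPKM in control 3 and at 0.237 RPKM or less elsewhere. The part of such cells in the collagen levels of control 3 was not tested.

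Basement membrane collagens were the most even class. All 6 tested genes had a change below 0, but the median was -0.03, near the -0.02 of all tested genes, and none passed the threshold. Leaving out 1 library moved the median between -0.14 (without control 1) and 0.02 (without miR-CKO 3), and it was also above 0 without control 2, control 3 or miR-CKO 1. Col4a1 (chr8:11198423-11312889) was at 100.2, 109 and 115 RPKM in the controls and at 108, 121 and 91.4 RPKM in miR-CKO. Col4a2 (chr8:11312805-11449287), the other chain of the common type IV molecule, was at 50.2, 59.9 and 60.3 RPKM in the controls and at 58.5, 61.4 and 47.7 RPKM in miR-CKO. The highest library was 1.32 times the lowest for Col4a1 and 1.29 times for Col4a2, and both were highest in miR-CKO 2 and lowest in miR-CKO 3. The log2 changes were -0.02 (95% interval -0.29 to 0.24) and -0.03 (-0.31 to 0.25). Both signs turn when the log2 values are centred on the median of each library, to 0.0089 and 0.0022.

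These genes lie head to head. Their annotated start sites are 21 bases apart on opposite strands, and the windows from 250 bases before to 50 after each start share 78 bases. The windows are shown because both genes are read from this stretch, and that of Col1a2 is given as a fibrillar chain with wider variation (RefSeq, GRCm38.p6; Col4a1 chr8:11312777-11313076 minus, Col4a2 chr8:11312555-11312854 plus, Col1a2 chr6:4505368-4505667 plus). Whether the shared stretch bears on the levels was not tested. The ratio of Col6a1 to Col6a2, genes 85161 bases apart on the same strand, was as narrow as that of Col4a1 to Col4a2. Capitals mark CCAAT on either strand, a motif bound by general activators.
Col4a1: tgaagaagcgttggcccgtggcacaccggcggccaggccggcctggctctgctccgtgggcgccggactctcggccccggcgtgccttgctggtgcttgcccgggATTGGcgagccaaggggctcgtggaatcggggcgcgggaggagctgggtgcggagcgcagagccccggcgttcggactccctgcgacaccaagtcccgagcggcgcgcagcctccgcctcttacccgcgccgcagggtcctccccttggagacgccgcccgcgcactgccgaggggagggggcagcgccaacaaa
Col4a2: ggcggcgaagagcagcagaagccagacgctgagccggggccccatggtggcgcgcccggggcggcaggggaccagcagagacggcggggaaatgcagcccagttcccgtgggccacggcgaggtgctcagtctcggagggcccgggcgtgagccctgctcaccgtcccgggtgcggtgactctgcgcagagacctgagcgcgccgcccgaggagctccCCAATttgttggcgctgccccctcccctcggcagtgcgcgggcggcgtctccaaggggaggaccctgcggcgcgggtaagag
Col1a2: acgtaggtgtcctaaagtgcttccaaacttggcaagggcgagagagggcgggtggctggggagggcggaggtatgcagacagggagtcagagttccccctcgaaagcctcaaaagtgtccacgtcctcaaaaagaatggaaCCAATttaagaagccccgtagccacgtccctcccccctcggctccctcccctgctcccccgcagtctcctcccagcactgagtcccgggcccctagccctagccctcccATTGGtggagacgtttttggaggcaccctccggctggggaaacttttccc
The windows of Col4a1 and Col4a2 each hold 1 CCAAT, and that of Col1a2 holds 2, in opposite orientations. The motif, searched on both strands, was in 13 of 38 collagen windows (34.2%), compared with 37.4% of 32851 windows of all genes. GGGCGG, the box bound by Sp1, was in 23 of 38 collagen windows (60.5%), compared with 35.7% of all windows. This box is all G and C, and the windows were not matched for their share of G and C. That share was 52.7% in the median of all windows, and from 37.7% (Col3a1) to 75.0% (Col5a1) in collagen windows. These 38 windows come from 35 of the 43 collagen genes, and Col1a1, Col2a1, Col5a2, Col9a3 and Col12a1 are among those not used here. TATAAA was in 13.2% of collagen and 13.6% of all windows.

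Col18a1, a basement membrane collagen whose end can be cleaved off as endostatin, was at 21.9, 31.3 and 28.1 RPKM in the controls and at 22.6, 32.7 and 24.3 RPKM in miR-CKO. Col15a1, its close relative, was at 7.37, 8.72 and 13.1 RPKM in the controls and at 9.21, 10.1 and 7.61 RPKM in miR-CKO. Col18a1, like Col4a1 and Col4a2, was highest in miR-CKO 2, whereas Col15a1 was highest in control 3. Col4a5, a chain of a rarer type IV molecule, was at 6.86, 9.30 and 6.62 RPKM in the controls and at 5.26, 6.99 and 8.70 RPKM in miR-CKO. Its X-linked neighbour Col4a6 was at 0.695 to 1.66 RPKM over the 6 libraries. The groups overlapped for all 4 genes, and their log2 changes ran from -0.12 to -0.0016. The 7 endothelial markers were each highest in miR-CKO 2 too. Their sums were 88.7, 103 and 97.0 RPKM in the controls and 87.5, 126 and 93.7 RPKM in miR-CKO. Of the 7, 4 were lowest in miR-CKO 1, whereas Col4a1 and Col4a2 were lowest in miR-CKO 3. Of 6 glial markers, 3 were highest in miR-CKO 2 and 4 were lowest in miR-CKO 3. The part of vessels or glia in the basement membrane levels was not tested.

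Type VI collagen forms the beaded microfilaments of loose connective tissue. Its chains Col6a1 and Col6a2 had, with Col3a1, the smallest p-values of the tested collagens after Col23a1. The class had a median log2 change of -0.38 over 4 tested genes. It was -0.57 without control 1, -0.14 without control 3 and between -0.41 and -0.34 without any other single library. Col6a1 was at 11.0, 14.6 and 18.2 RPKM in the controls and at 8.96, 12.1 and 11.0 RPKM in miR-CKO, with a log2 change of -0.40 (SE 0.18). Col6a2 was at 12.2, 16.5 and 21.2 RPKM in the controls and at 11.0, 13.6 and 12.6 RPKM in miR-CKO, with a log2 change of -0.37 (SE 0.19). In both, control 1 lay within the range of the miR-CKO libraries. Col6a3 was at 6.09, 8.96 and 15.7 RPKM in the controls and at 6.57, 6.57 and 7.57 RPKM in miR-CKO, and control 3 stood alone. Col28a1 differed from these 3, with 3.50, 1.21 and 3.58 RPKM in the controls and 6.17, 1.77 and 1.49 RPKM in miR-CKO. Its highest library was miR-CKO 1, which was the lowest for Col6a1 and Col6a2.

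Fibril-associated collagens, which sit on the surface of fibrils, had a median log2 change of -0.27 over 5 tested genes, of which 4 were below 0 and none passed the threshold. The median was -0.52 without control 1, -0.10 without control 3, -0.10 without miR-CKO 1 and -0.50 without miR-CKO 3. Col12a1 was at 8.72, 14.8 and 12.2 RPKM in the controls and at 4.75, 7.49 and 15.5 RPKM in miR-CKO, so the highest and the lowest library were both miR-CKO. Col14a1 shared this low value in miR-CKO 1 (4.48 RPKM) and a high one in miR-CKO 3 (11.3 RPKM), with 5.68, 12.4 and 8.25 RPKM in the controls. Col16a1 was at 1.33, 2.63 and 4.68 RPKM in the controls and at 1.67, 1.47 and 2.03 RPKM in miR-CKO. Col22a1 ranged from 5.56 RPKM in miR-CKO 3 to 12.1 RPKM in control 3. Unlike Col12a1 and Col14a1, it was high in miR-CKO 1, at 11.7 RPKM. Col20a1 was between 1.25 and 2.27 RPKM throughout.

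The chains of type VIII collagen, a network former, differed from each other. Col8a1 was at 7.77, 8.91 and 6.06 RPKM in the controls and at 5.47, 8.49 and 8.47 RPKM in miR-CKO. Col8a2 was at 2.23, 10.4 and 7.45 RPKM in the controls and at 2.56, 2.82 and 9.33 RPKM in miR-CKO. Col8a2 thus had 3 high and 3 low libraries that cut across the groups, and its log2 change of -0.38 had a standard error of 0.57.

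Among membrane-spanning collagens, Col23a1 was the collagen with the smallest p. Col23a1 (chr11:51289679-51583925) was at 7.30, 6.59 and 6.87 RPKM in the controls and at 4.99, 5.94 and 5.35 RPKM in miR-CKO. All 3 controls lay above all 3 miR-CKO libraries, with means of 6.92 ± 0.357 and 5.43 ± 0.478 RPKM (SD, n = 3 each). The log2 change was -0.30 (SE 0.09, 95% interval -0.51 to -0.09), with an unadjusted p of 0.0118 and an adjusted p of 0.679 (limma), so it did not pass the threshold. Its control 1 was the highest library, which set it apart from the connective tissue chains. With each library left out in turn, the log2 change of Col23a1 was between -0.36 and -0.25. Since its groups do not overlap, leaving out 1 library could not turn this sign. Col25a1, a membrane collagen of neurons, was at 0.914, 2.45 and 1.70 RPKM in the controls and at 1.22, 1.63 and 1.25 RPKM in miR-CKO. Col13a1, a membrane collagen of muscle endplates, reached 2.52 RPKM in control 3 and was at 0.209 to 0.645 RPKM elsewhere. Col17a1, of skin attachment sites, was at 0.150 RPKM or less.

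Of the 13 collagens below the filter, 3 had groups that did not overlap, and these 3 rest on few reads. Over the 6906 genes below the filter and above 0 in at least 1 library, 7.23% had such groups. Col4a3 had 45, 47 and 53 reads in the controls and 37, 20 and 17 reads in miR-CKO. Col4a4, its neighbour on the opposite strand (the genes overlap by 114 bases), had 18, 21 and 17 reads in the controls and 9, 14 and 12 reads in miR-CKO. Col4a3 and Col4a4 are chains of the same rare type IV molecule, and both were lower in miR-CKO. Col6a4 had 5, 3 and 4 reads in the controls and 9, 10 and 8 reads in miR-CKO, so it was higher. In the limma fit without a filter, the unadjusted p was 0.0172 for Col4a3, 0.0718 for Col4a4 and 0.0769 for Col6a4, and the adjusted p of Col4a3 was 0.839. The other members of this kind, Col6a5, Col6a6, Col7a1 and Col19a1 among them, had overlapping groups, and 42 of 43 collagens were above 0 in every library.

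Ratios between chains of 1 molecule show which chains moved in step. Col4a1 over Col4a2 was 1.99, 1.81 and 1.90 in the controls and 1.85, 1.96 and 1.91 in miR-CKO, so its highest value was 1.10 times its lowest. Col6a1 over Col6a2 was as narrow, from 0.814 to 0.895. Col1a1 over Col1a2 ranged more widely, with 0.345, 0.460 and 0.525 in the controls and 0.380, 0.342 and 0.479 in miR-CKO. The libraries low in fibrillar collagen, control 1 and miR-CKO 1, thus also had low ratios, as did miR-CKO 2. The widest range was that of Col9a1 over Col9a3, which was 0.760, 2.01 and 1.21 in the controls and 0.688, 0.924 and 2.22 in miR-CKO. Control 2 and miR-CKO 3 stood above the others in this ratio. In the 8 ratios compared, the log2 difference between the groups ran from -0.14 to 0.11. By a two-sided exact permutation test, the unadjusted p was 0.6 or more in each and the adjusted p was 0.9. With 3 against 3 libraries, this test cannot give a p below 0.1.

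**Figure D4:**
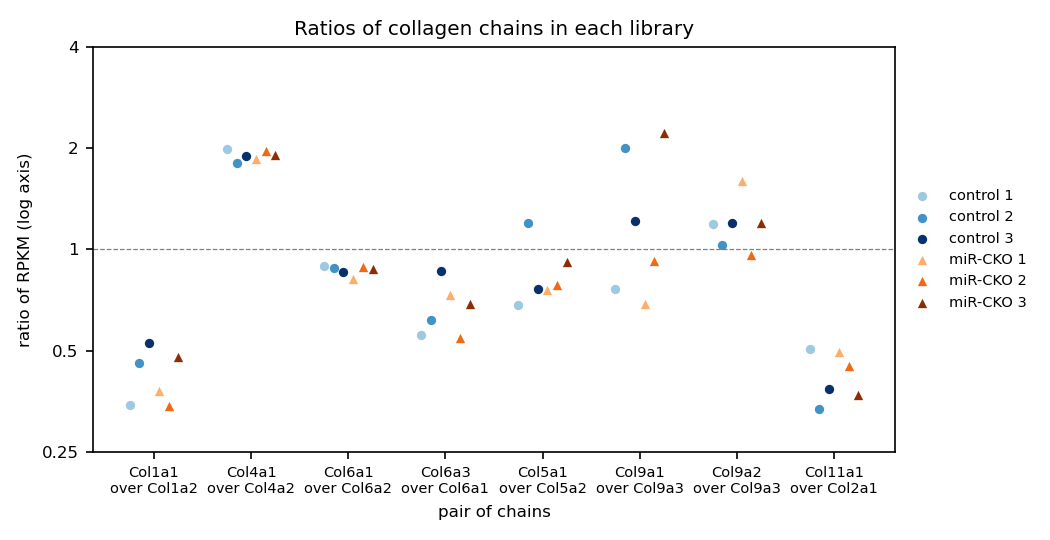
Ratio of RPKM between chains of the same collagen molecule in each library, on a log axis (circles, control; triangles, miR-CKO; 1 point per library; dashed line, a ratio of 1). Col4a1 over Col4a2 and Col6a1 over Col6a2 form tight clusters, whereas Col9a1 over Col9a3 spreads from 0.688 to 2.22.

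Several lists of markers of other tissues were, like most collagens, low in control 1 and miR-CKO 1 and high in controls 2 and 3. The 12 tested mesenchyme markers, such as Pdgfra and Twist1, had changes below 0 in all cases, with a median of -0.37. Their list of 14 summed to 67.0, 118 and 122 RPKM in the controls and 52.5, 79.4 and 84.0 RPKM in miR-CKO. That is the order seen in fibrillar collagens, with control 1 low and controls 2 and 3 high. The 9 skeletal muscle markers summed to 30.7, 167 and 130 RPKM in the controls and 29.3, 31.5 and 40.6 RPKM in miR-CKO, and all 7 tested had a change below 0. The 13 cartilage and sclerotome markers summed to 15.3, 32.8 and 35.5 RPKM in the controls and 15.7, 18.0 and 32.5 RPKM in miR-CKO. In that list, 6 of 7 tested genes were below 0, and miR-CKO 3 was high, as it was for Col9a1. Pax1, a sclerotome factor, was at 0.844, 7.71 and 4.10 RPKM in the controls and at 0.729, 1.08 and 5.34 RPKM in miR-CKO. None of these markers passed the threshold, and their part in the collagen levels was not tested.

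Sensory neuron and glial markers followed another order. The 8 sensory neuron markers summed to 2657, 2134 and 2737 RPKM in the controls and 3233, 2713 and 2202 RPKM in miR-CKO, and 7 of them were highest in miR-CKO 1, which had low collagen levels. The 6 glial markers summed to 813 to 1083 RPKM, with 4 of them lowest in miR-CKO 3. Pericyte and smooth muscle markers had a median log2 change of -0.19 over 4 tested genes, with sums of 40.6, 73.1 and 63.1 RPKM in the controls and 36.3, 49.8 and 49.0 RPKM in miR-CKO, near the order of the fibrillar collagens. Macrophage markers had a median of -0.09 over 5 tested genes, and all 5 were lowest in control 1 or miR-CKO 1. Meningeal markers had a median of -0.06 over 4. The part of these cells was not tested. Emid2, the table's name for the gene that RefSeq calls Col26a1, falls outside the naming rule, and was at 23.1, 37.0 and 35.0 RPKM in the controls and at 22.1, 26.7 and 26.2 RPKM in miR-CKO. It thus had the order of the fibrillar chains.

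**Figure D5:**
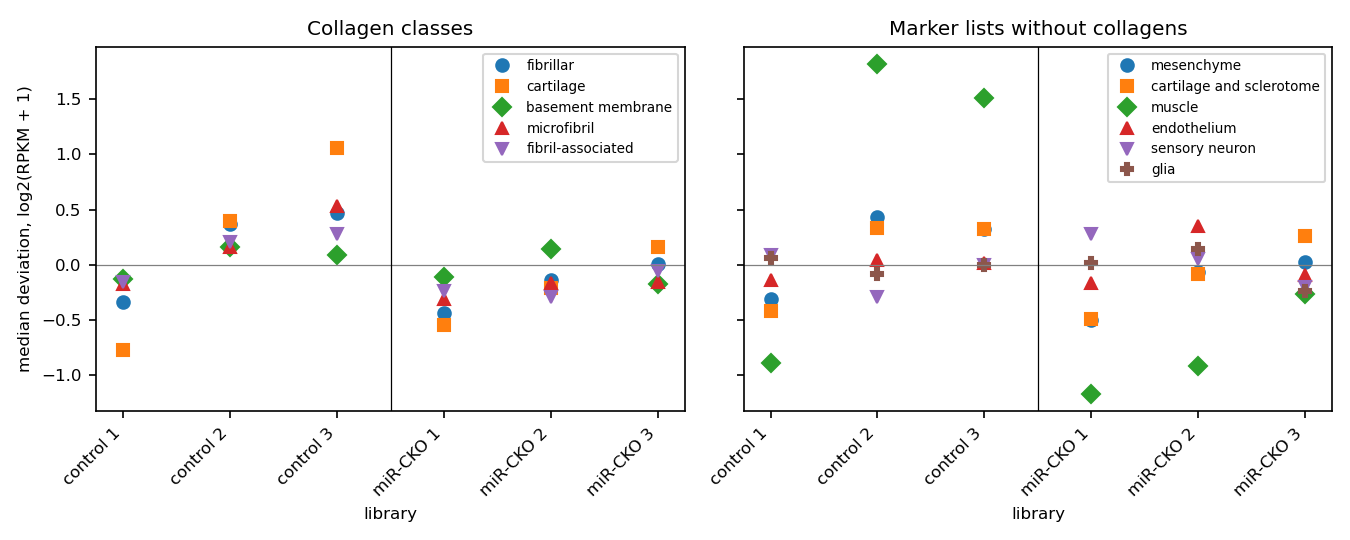
Median deviation of each library from the gene means, in log2(RPKM + 1), over the tested genes of 5 collagen classes (left) and of 6 marker lists that hold no collagen (right), with 1 symbol per class or list and library. Fibrillar and cartilage collagens are low in control 1 and miR-CKO 1 and high in controls 2 and 3, as are the mesenchyme, cartilage and muscle markers. The cartilage markers are also high in miR-CKO 3. The muscle markers are as low in miR-CKO 2 (-0.92) as in control 1 (-0.89), unlike fibrillar collagens (-0.13 in miR-CKO 2). Sensory neuron markers are highest in miR-CKO 1.

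Genes that build, bind or break down collagen were compared in the same fit. Of 31 tested assembly genes, which modify, fold, process and crosslink the chains, 28 had a change below 0 and none passed the threshold, with a median of -0.16. Serpinh1, the collagen chaperone Hsp47, was at 103, 162 and 170 RPKM in the controls and at 108, 145 and 130 RPKM in miR-CKO. P4hb, a subunit of prolyl hydroxylase, was at 165 to 202 RPKM and Sparc, which binds collagen outside the cell, at 159 to 218 RPKM. Serpinh1 varied more than these, 1.65 times between libraries, and was low in control 1 and miR-CKO 1, as the fibrillar chains were. Fkbp14, a folding enzyme, was at 13.2, 13.4 and 14.6 RPKM in the controls and at 10.6, 12.1 and 12.6 RPKM in miR-CKO, with an unadjusted p of 0.0428 and an adjusted p of 0.935 (limma).

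The collagen receptors were divided. Of 10 tested, 5 had a change above 0 and 5 below, with a median of 0.0099. Itgb1, the beta chain of the collagen-binding integrins, was at 106, 111 and 106 RPKM in the controls and at 121, 129 and 118 RPKM in miR-CKO. All miR-CKO libraries lay above all controls, with an unadjusted p of 0.0206 and an adjusted p of 0.774 (limma). Ddr2, a receptor kinase for fibrillar collagens, was at 5.73, 12.7 and 8.87 RPKM in the controls and at 4.91, 6.32 and 9.01 RPKM in miR-CKO, low in control 1 and miR-CKO 1 as the fibrillar chains were. In all, 7 of the 10 receptors were lowest in 1 of these libraries (70.0%), compared with 48.2% of all tested genes. Gpr56, a receptor for type III collagen, was at 55.1 to 86.5 RPKM with overlapping groups. Of 9 tested breakdown genes, 8 had a change below 0, with a median of -0.13. Mmp2, a protease of type IV collagen, was at 11.1, 25.5 and 28.0 RPKM in the controls and at 11.7, 15.1 and 16.8 RPKM in miR-CKO. That is the order of the fibrillar collagens, but Mmp2 had the widest range of these 9 genes, 2.51 times against a median of 1.42. Of the 9, 7 were highest in control 2 or 3 (77.8%, against 44.5% of all tested genes). Only 4 were lowest in control 1 or miR-CKO 1 (44.4%, against 48.2%). The 11 basement membrane partners, laminins, nidogens, perlecan and agrin, had a median of -0.05 with 8 below 0. Agrn was at 85.6 to 98.2 RPKM and Nid1 at 40.6 to 50.5 RPKM, as narrow in range as Col4a1 and Col4a2. Other partners, among them Lama1, Lama5 and Hspg2, ranged more widely. The median partner also varied more among libraries than the median tested gene, so the list as a whole was not as even.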

How the data were processed

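RNA was sequenced from 3 control and 3 miR-CKO samples of lumbar dorsal root ganglia with a stranded kit for polyadenylated RNA, per the labels. The submitters' processing notes name Bowtie and the build mm10, and the counting tool and annotation were not given in the sources used here. A single table was deposited by the authors, with values for 24264 genes, decimal commas and no named unit. The deposited values were read as RPKM, since within a gene they are whole multiples of a step that falls as the transcript gets longer (Spearman correlation -0.919 over 2618 single-transcript genes, which are not independent replicates). Reads recovered from the steps were whole within 0.01 read for 95.3% of genes above 0 in at least 2 libraries. They gave depths of 21.6, 24.2 and 20.1 M reads (M, mega) in controls 1 to 3 and 22.4, 22.1 and 20.7 M in miR-CKO 1 to 3. Within groups, libraries differed beyond counting error (chi-square per gene 11.1 to 27.0), and each counted as 1 replicate.

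Values were transformed to log2(RPKM + 1), kept at 1 RPKM or more in at least 3 libraries, and compared with limma 3.58.1 in R 4.3.3 (trend and robust settings), adjusted over all 13118 genes, with a threshold of 0.05. Changes on this scale understate those of low genes. The fit was tested on simulated data. Chain ratios were compared with SciPy 1.17.1, and sequences came from RefSeq and GENCODE M21. Collagens given in every library were the 12 with the highest mean, the 2 with the smallest p in each class and any past the threshold; others were named after their values were seen. For the assembly, receptor, breakdown, basement membrane partner and 9 marker lists, the rule takes the 2 highest means, the 3 smallest p and any past the threshold, and only those beside a collagen result are printed. Members, classes and lists were chosen with earlier results of these data known. Alternatives covered the pseudocount, filter, scaling, trend, a replicate block and left-out libraries.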

Additional observations from a re-analysis of the deposited data

How the results depend on the processing

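No collagen passed the threshold under any alternative run. The number with an unadjusted p below 0.05 (limma) was 1 in the fit reported and 0 to 2 under the alternatives, except for 6 with a replicate block and 14 without control 1. Over all genes, 8 passed in the fit reported. With upper quartile scaling, without the trend, with the replicate block, and without controls 2 and 3 together, 0 passed, with 698, 705, 847 and 403 genes at an unadjusted p below 0.05 (limma). With median centring 2 passed, and with 1 library left out 0 to 2. The cause was not tested. Same-numbered libraries had correlations of 0.359, 0.330 and -0.221, and pairs with different numbers also had both signs. With so few libraries, these values cannot decide whether the numbers pair the samples. The replicate block gave the same collagen median of -0.287. Each number holds 1 library of each group, so the block cannot move this median, and its equality is no check of pairing.

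Leaving out 1 library gave a collagen median between -0.54 and -0.12. Without controls 2 and 3 it was 0.16, Col28a1 turned below 0 (-0.29), and 21 of 30 changes turned above 0: Col11a1 (0.34), Col14a1 (0.22), Col15a1 (0.24), Col16a1 (0.22), Col18a1 (0.25), Col1a1 (0.40), Col1a2 (0.21), Col25a1 (0.30), Col27a1 (0.17), Col2a1 (0.56), Col3a1 (0.013), Col4a1 (0.082), Col4a2 (0.14), Col4a6 (0.077), Col5a1 (0.20), Col6a2 (0.012), Col6a3 (0.15), Col8a2 (0.69), Col9a1 (0.98), Col9a2 (0.60) and Col9a3 (0.54). This leaves 1 control, assumed to vary like the miR-CKO libraries. With median centring, Col4a1 (0.0089), Col4a2 (0.0022), Col4a6 (0.028) and Col8a1 (0.0040) turned, and with upper quartile scaling Col4a6 (0.0041) did. With 1 library left out, the sign turned for Col20a1 (-0.085 to 0.18), Col22a1 (-0.42 to 0.056), Col28a1 (-0.44 to 0.32), Col4a6 (-0.11 to 0.17), Col9a2 (-0.86 to 0.086), Col15a1 (-0.24 to 0.14), Col18a1 (-0.19 to 0.075), Col25a1 (-0.37 to 0.054), Col4a1 (-0.11 to 0.085), Col4a2 (-0.11 to 0.080), Col4a5 (-0.27 to 0.048) and Col8a1 (-0.16 to 0.16). The sign of the log2 ratio turned likewise for Col4a1 over Col4a2 (-0.028 to 0.042), Col6a1 over Col6a2 (-0.057 to 0.0027), Col6a3 over Col6a1 (-0.17 to 0.15), Col5a1 over Col5a2 (-0.23 to 0.17), Col9a1 over Col9a3 (-0.62 to 0.23), Col9a2 over Col9a3 (-0.076 to 0.29) and Col11a1 over Col2a1 (-0.020 to 0.28). With group medians, Col6a3 over Col6a1 was 0.16 and Col5a1 over Col5a2 was 0.033. The sources name no litter or dissection batch, and 3 libraries per group limit what the fit can call.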

Other observations

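Several collagen genes lie next to each other in the genome (RefSeq, GRCm38.p6). Col3a1 and Col5a2 are separated by 24624 bases on chromosome 1, Col6a2 and Col6a1 by 85161 bases on chromosome 10, and Col4a6 and Col4a5 by 1274 bases on the X chromosome. Col3a1 and Col5a2 were both highest in control 3, as were 15 of 30 tested collagens and 5 of 6 fibrillar chains, so this is not particular to the pair. Col9a1 and Col19a1 are 4944 bases apart on opposite strands, but Col9a1 ranged 7.49 times over the libraries and Col19a1 2.12 times, from 0.265 to 0.563 RPKM.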
